A study of Mus musculus with 24 samples.

Results

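The MuRF proteins are the muscle-specific RING finger ubiquitin ligases MuRF1, MuRF2 and MuRF3, which in the mouse are encoded by Trim63, Trim55 and Trim54. Every probe annotated to these genes was taken from the array's probe annotation. Trim63 and Trim54 had 1 probe each (ILMN_3161061 and ILMN_2756950), so 2 of the 3 genes could be followed among 17711 named genes on the array, of which 11317 were bright enough to be tested. No probe carried the name Trim55, by symbol, synonym, Entrez identifier or accession, and MuRF2 is not analysed here.

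Total RNA came from triceps surae, the calf muscle group, of C57/Bl6 mice aged 6 months. Muscle was taken 3 or 14 days after a piece of the sciatic nerve was removed on one side, which paralyses the calf. Control mice of the same litters were kept alongside and had no operation. Wild type and MuRF1 knockout mice were studied in each setting, giving 8 groups of genotype, treatment and day with 3 arrays per group. The labels name no allele, promoter or Cre for the knockout. Nothing in the sources used here ties the 3 arrays of a group to 3 animals. The p-values therefore measure the spread between these arrays, which may be technical.

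MuRF proteins share a RING domain, which recruits the ubiquitin-loaded conjugating enzyme, and a coiled coil through which family members pair with themselves and with each other. They bind titin in the sarcomere and mark proteins of the thick filament for the proteasome. Trim63 is known as a gene that rises in wasting muscle, together with Fbxo32, which encodes atrogin-1. MuRF3, the product of Trim54, is known for binding microtubules and the sarcomere. The question addressed was whether transcripts of a paralogue stood higher where Trim63 was lost, which is a question about RNA, since no protein was measured.

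The promoters of both genes are shown because Trim63 passed the test after denervation and Trim54 did not. They run from 250 bases before to 50 bases after the RefSeq start site on the plus strand of build GRCm38.p6, at chr4:134314870-134315169 for Trim63 and at chr5:31116362-31116661 for Trim54. Capitals mark matches to 3 motifs on either strand: GNACA followed after 3 bases by TGTNC for the glucocorticoid receptor, GTAAACA of the FoxO factors, and GGAATG, the MCAT element of muscle genes.
Trim63: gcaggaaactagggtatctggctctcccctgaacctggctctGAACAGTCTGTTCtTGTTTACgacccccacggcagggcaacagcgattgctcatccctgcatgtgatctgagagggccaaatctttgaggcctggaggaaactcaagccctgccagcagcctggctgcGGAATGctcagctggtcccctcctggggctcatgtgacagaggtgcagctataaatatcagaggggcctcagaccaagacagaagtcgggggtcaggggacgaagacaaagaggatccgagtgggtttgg
Trim54: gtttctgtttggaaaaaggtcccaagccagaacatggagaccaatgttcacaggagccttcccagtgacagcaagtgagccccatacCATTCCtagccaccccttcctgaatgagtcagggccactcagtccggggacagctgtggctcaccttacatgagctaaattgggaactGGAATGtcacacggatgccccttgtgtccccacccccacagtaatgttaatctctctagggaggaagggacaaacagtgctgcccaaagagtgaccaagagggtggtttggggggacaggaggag

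The Trim63 window held 1 glucocorticoid receptor match and 1 FoxO match, which lay 1 base apart and did not overlap. Of 32851 promoters of the same length, 0.475% held the first motif and 3.65% the second. Neither was found in the Trim54 window. The MCAT element occurred in 1 place in the Trim63 window and in 2 places in that of Trim54, and 14.7% of all promoters held it. CANNTG, the E-box that myogenin and MyoD bind, was found in 3 places for Trim63 and in 2 for Trim54, in a motif carried by 72.3% of promoters. TATAAA was present for Trim63 only, and 13.6% of promoters had it. These matches describe the letters in the window and do not show that a factor binds.

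Levels are log2 normalized intensities, and each is comparable between arrays for the same probe but not between Trim63 and Trim54, which have different probes. A difference was called when its Benjamini-Hochberg adjusted p, from a linear model fitted to all 11317 genes, was under 0.05. Each array detected between 15532 and 18520 probes on day 3 and between 16875 and 18755 on day 14. In the denervated knockout group of day 3, 2 arrays stood apart with 18434 and 18520 detected probes, against at most 17055 on the other arrays of that day. Leaving them out took the genes called between genotypes in denervated muscle of day 3 from 811 to 28, so genotype counts of that group are given both ways. All 8 markers of skeletal muscle fibres were detected in every group, Ckm and Acta1 among them. The 2 tested markers of cardiac muscle, of 6 listed, were dim. Nppa was undetected in 6 of the 8 groups, while Tnni3 was detected on all 24 arrays at a mean of 6.848.

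Trim63 rose 3 days after denervation in wild type muscle, and on day 14 it did not pass the test. On day 3 the wild type control arrays read 9.05, 9.67 and 9.65, and the denervated arrays 11.37, 10.73 and 11.04. The lowest denervated array stood above the highest control array, and such a gap was found for 50.8% of all genes. Denervated muscle was 1.59 higher on the log2 scale (SE 0.167, 95% interval 1.24 to 1.94), a 3.01-fold rise (adjusted p 1.82e-07). In that comparison 37.5% of all genes were called, and 95.7% of genes changed by less than Trim63. The rise held when each array was left out in turn, with values from 1.39 to 1.75.

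By day 14 the wild type control arrays read 10.29, 10.27 and 10.36, and the denervated arrays 10.28, 9.95 and 10.04. The ranges overlapped, unlike those of 53.1% of genes, and the difference of -0.22 (95% interval -0.56 to 0.13) was not called (adjusted p 0.33), among 41.5% of genes that were. The denervation response of Trim63 was smaller on day 14 than on day 3, with a difference of -1.8 on the log2 scale (SE 0.237, adjusted p 5.28e-05), where 13.7% of genes were called. In knockout muscle the same difference was -0.27 for Trim63 and -0.25 for Trim54, neither called, among 20.6% of genes that were. Part of that difference lay in the controls. Unoperated wild type muscle stood 0.85 higher on day 14 than on day 3 (adjusted p 0.00293, 13.8% of genes called), and the 3 arrays of each day did not overlap, as for 36.8% of genes. The probe's signal near background in knockout controls was also higher on day 14, by 0.71 (adjusted p 0.00365, 34.6% of genes called). The arrays of the 2 days again did not overlap, as for 44.9% of genes. No knockout control array of day 3 detected the probe, and without background correction the difference was 0.28 and not called (adjusted p 0.0896). The genotype by day interaction in controls was -0.14 (adjusted p 0.794). With the number of detected probes as a covariate, the difference between days was 0.73 in wild type controls (adjusted p 0.105). In knockout controls it was 0.58 (adjusted p 0.175), and neither was called. Day of sampling and handling of the arrays cannot be told apart.

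Markers of several cell types moved in wild type muscle on day 3, when Trim63 rose. Of 10 macrophage and leukocyte markers 6 were tested. In wild type muscle 5 rose on day 3 against 2 on day 14, where 20% and 22.9% of all genes rose. Their summed linear intensity ran from 3110 to 3420 in control and from 4780 to 8050 in denervated muscle on day 3, and from 2300 to 3030 and 1810 to 3070 on day 14. In the knockout 1 of these 6 markers rose on day 3 and 4 on day 14, where 20.2% and 19% of all genes rose. The wild type sum over the 8 fibre markers ran from 398000 to 416000 in control and from 337000 to 366000 in denervated muscle on day 3. On day 14 it ran from 440000 to 469000 and from 409000 to 425000. Of tested markers in wild type muscle of day 3, 3 of 6 endothelial, 2 of 3 Schwann and 2 of 5 adipocyte markers fell and 0 rose. Of all genes 17.5% fell there. The part of these cell types in the result was not tested. In whole muscle RNA, fewer cells of a type and less RNA per cell cannot be told apart.

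In the knockout the Trim63 probe gave signal at or near background. Where the probe lies relative to the deleted part of the gene is not given in the sources used here. On day 3 the knockout control arrays read 5.04, 4.83 and 5.15 and the denervated arrays 5.30, 5.33 and 5.14, and none of these 6 arrays detected the probe. On day 14 the values were 5.69, 5.69 and 5.78 in control and 5.49, 5.72 and 5.86 in denervated muscle. All 6 arrays of day 14 detected it, at detection p-values of 0.000648 to 0.0481, and these signals sat close to the dimmest detected signal of an array, which ran from 5.49 to 5.69 on that day.

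Trim63 was lower in knockout than in wild type muscle by at least 12.5-fold in control and at least 44.7-fold in denervated muscle on day 3 (adjusted p 1.18e-13 and 1.17e-15). Each bound sets the wild type mean against the dimmest signal detected on the knockout arrays, or the probe's own signal where that was higher. On day 14, where the probe was detected, it was 24.1-fold lower in control and 21.1-fold lower in denervated muscle (adjusted p 6.32e-14 and 1.48e-13). These 4 comparisons called 0.521%, 7.17%, 5.51% and 6.92% of all genes in that order, and knockout and wild type arrays were apart in each, as for 15.5%, 24.8%, 32.4% and 30.1% of genes. Without background correction the 4 log2 differences were -2.46, -3.76, -2.92 and -2.73, smaller than with it but all called. Denervation gave no called change of the residual signal in the knockout, with 0.25 on day 3 (adjusted p 0.267) and -0.02 on day 14 (adjusted p 0.922).

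In order of group means, Trim63 was highest in denervated wild type muscle of day 3, followed by control and denervated wild type muscle of day 14, control wild type muscle of day 3 and then the 4 knockout groups. The day 14 wild type groups overlapped each other. A gap of 3.74 separated the lowest wild type mean from the highest knockout mean.

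**Figure D1:**
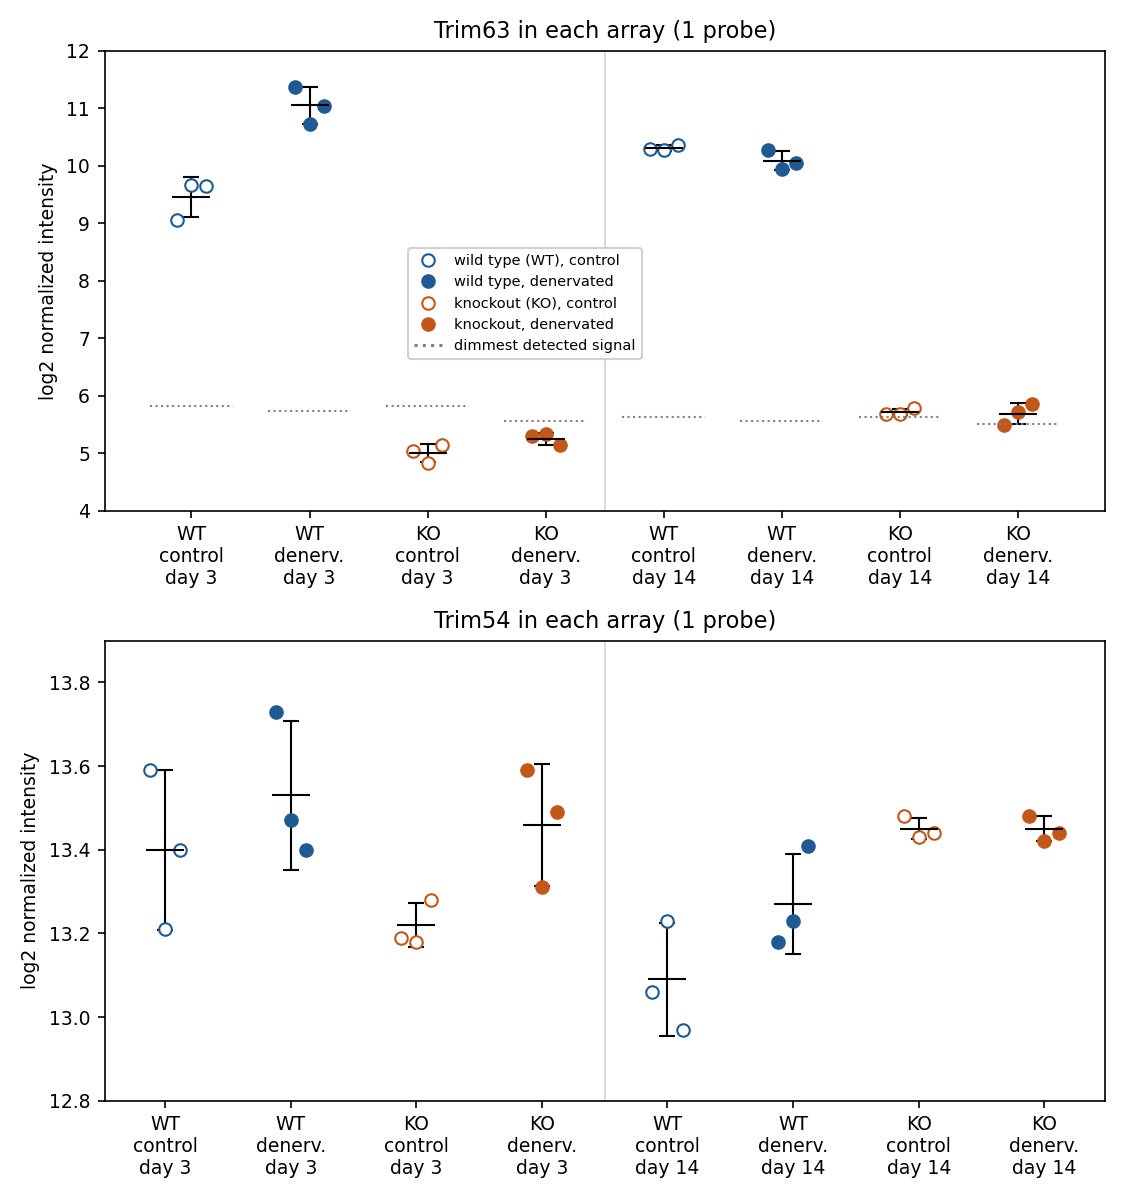
Log2 normalized intensity of Trim63 (upper panel) and Trim54 (lower panel, on a narrower axis that does not start at 0) on each of the 24 arrays in the 8 groups of genotype, treatment and day. Points are arrays, bars the group mean ± SD, and dotted lines the mean over a group's arrays of the dimmest detected signal; Trim63 spans 4.83 to 11.37 and Trim54 12.97 to 13.73.

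Trim54 was bright and steady. Its mean of 13.36 over the 24 arrays was above that of 97.1% of genes tested, its raw intensities of 7156 to 14089 lay far below the 65900 or more that the brightest probe of each array reached, and every array detected it. The 8 group means spanned 0.45 on the log2 scale, against a median span of 0.93 over all genes, and only 5.5% of genes had a narrower one. The pooled SD within groups was 0.125, against a median of 0.238.

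In wild type muscle Trim54 did not pass the test after denervation. On day 3 the control arrays read 13.59, 13.21 and 13.40 and the denervated arrays 13.73, 13.47 and 13.40. The ranges overlapped, with a difference of 0.13 (95% interval -0.12 to 0.38, adjusted p 0.431). On day 14 the control arrays read 13.06, 13.23 and 12.97 and the denervated arrays 13.18, 13.23 and 13.41, a difference of 0.19 (95% interval -0.07 to 0.44, adjusted p 0.239). A rise of Trim54 as large as that of Trim63 on day 3 lies outside both intervals.

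In knockout muscle the control arrays of day 3 read 13.19, 13.18 and 13.28 and the denervated arrays 13.59, 13.31 and 13.49. All 3 denervated arrays were above the controls, and for 38.1% of all genes these groups did not overlap. The difference of 0.25 (95% interval -0.01 to 0.50) was not called (adjusted p 0.124), while 35.8% of genes were. With arrays centred on their medians in place of quantile normalization it became 0.61 (adjusted p 0.000691), a setting in which the median of all genes moved by 0.45, so that Trim54 stood 0.16 above that median. On day 14 the control arrays read 13.48, 13.43 and 13.44 and the denervated arrays 13.48, 13.42 and 13.44, which overlapped, unlike those of 51.7% of genes, with an interval of -0.26 to 0.25 for the difference (adjusted p 0.979, 36.7% of genes called).

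Whether denervation acted on Trim54 differently with and without MuRF1 was tested as an interaction. On day 3 the knockout response exceeded the wild type response by 0.12 (95% interval -0.24 to 0.47, adjusted p 0.763), and on day 14 it was smaller, at -0.19 (95% interval -0.55 to 0.17, adjusted p 0.512). The share of all genes called was 1.08% and 12.5%. For Trim63 the same interaction was -1.34 on day 3 (adjusted p 0.00865), where the knockout side is signal of an undetected probe. It was no longer called when only the arrays of day 3 were fitted (adjusted p 0.107), when the 2 arrays of most detected probes were dropped (-1.3, adjusted p 0.141) or with the authors' processed values on the log2(value + 16) scale (-1.0, adjusted p 0.105).

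**Figure D2:**
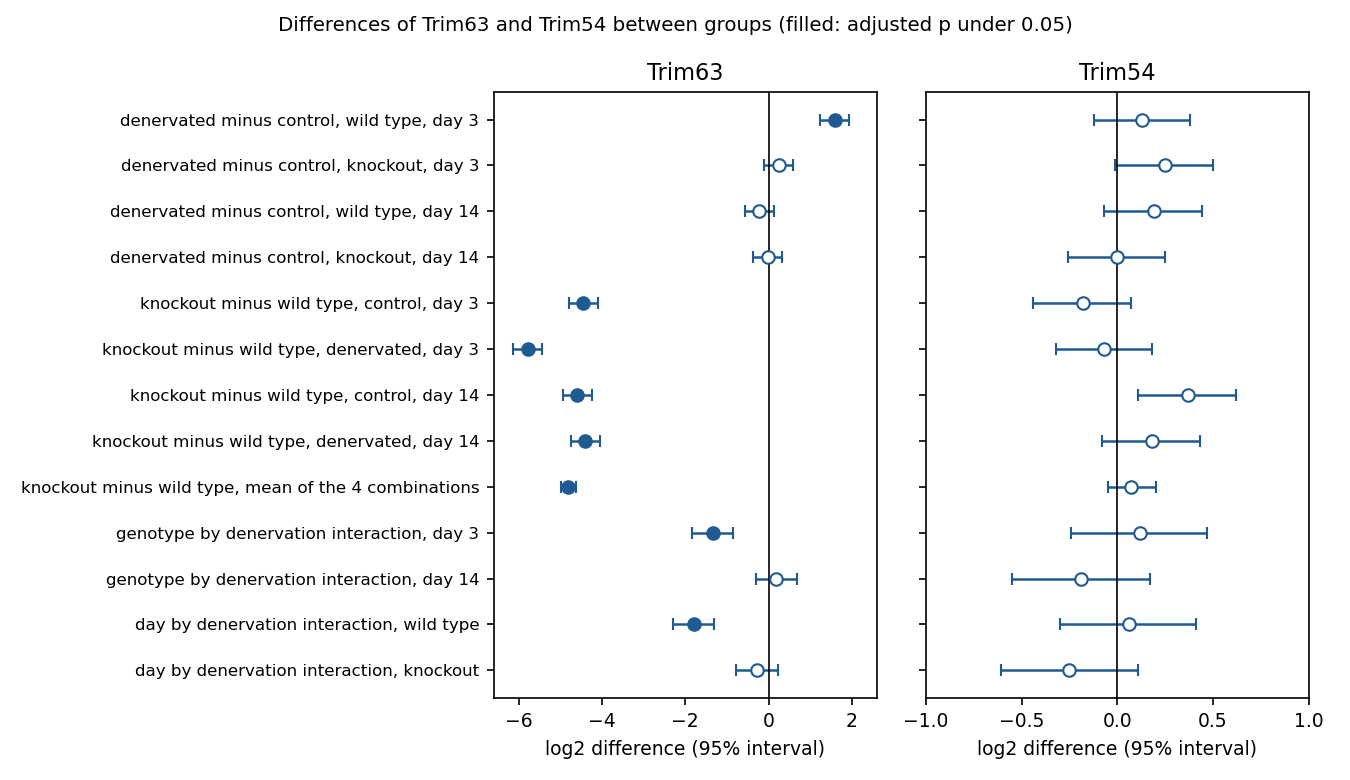
Log2 differences of Trim63 (left) and Trim54 (right, on a narrower axis) between groups, with 95% intervals from the fit; filled points have an adjusted p under 0.05. Trim63 was called in the day 3 denervation response of wild type muscle, in all genotype comparisons and in 2 interactions, and Trim54 in none.

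Averaged over both treatments and both days, Trim54 was 0.07 higher in knockout than in wild type muscle on the log2 scale (SE 0.0609, 95% interval -0.05 to 0.20, adjusted p 0.506). As a ratio of knockout to wild type this is 1.05, with an interval of 0.963 to 1.15, from 12 arrays against 12. The same average called 6.82% of all genes and gave -4.81 for Trim63 (adjusted p 2.01e-20). None of the alternatives for normalization, filtering, background, covariates or replicates brought the average of Trim54 past the test, and its values ran from 0.05 to 0.11 over them.

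Within day 3 the knockout means of Trim54 were below the wild type means, and neither difference passed the test. It was -0.18 in control muscle (95% interval -0.44 to 0.07, adjusted p 0.535) and -0.07 in denervated muscle (95% interval -0.32 to 0.18, adjusted p 0.777), and the ranges overlapped in both. The denervated difference became 0.06 when the 2 arrays of most detected probes were dropped. Expressed as ratios, the upper limits were 1.05 and 1.14.

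Within day 14 all 3 knockout arrays stood above all 3 wild type arrays in control and again in denervated muscle. Such a separation was found for 32.4% of genes in control and 30.1% in denervated muscle. In control muscle the difference was 0.37 (95% interval 0.11 to 0.62), a ratio of 1.29 with limits of 1.08 and 1.54, at an unadjusted p of 0.00674 and an adjusted p of 0.0789. Without background correction it passed the test at 0.36 (adjusted p 0.0323), and with arrays weighted by their quality at 0.39 (adjusted p 0.0228). In denervated muscle it was 0.18 (95% interval -0.08 to 0.43, adjusted p 0.434), with an upper limit of 1.35 as a ratio.

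The genotype difference of Trim54 had opposite signs on the 2 days, and this was tested as an interaction added after the values had been seen. It was 0.55 in control muscle (95% interval 0.19 to 0.91, adjusted p 0.138) and 0.40 averaged over both treatments (95% interval 0.14 to 0.65, adjusted p 0.143), with 0.0442% and 0.566% of genes called. The control arrays moved in opposite ways between days, by -0.31 in wild type (adjusted p 0.0882) and by 0.24 in knockout muscle (adjusted p 0.135, 34.6% of genes called), and neither passed the test. The knockout control arrays of the 2 days did not overlap, as for 44.9% of genes. In order of group means Trim54 was highest in denervated wild type muscle of day 3 and lowest in control wild type muscle of day 14, and every pair of neighbours in that order overlapped.

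Across the 12 wild type arrays the correlation of Trim63 with Trim54 was 0.156, and across the 12 knockout arrays, where the Trim63 probe was at or near background, it was 0.59. The arrays share their group structure and both values are descriptions. The genes whose levels followed Trim63 most closely over the 12 wild type arrays were Kctd9 (r = 0.938), the beta-tubulin Tubb4b (0.92), Creld2, a protein of the endoplasmic reticulum (0.916), Cars, the cysteinyl-tRNA synthetase (0.913), and Drg1, a GTP-binding protein (0.909). Tubb4b went from a mean of 13.08 to 14.44 on day 3 and from 13.58 to 13.41 on day 14 in wild type muscle, and in knockout muscle from 13.14 to 14.58 and from 13.51 to 14.12. Over all 24 arrays the genes most like Trim54 were Gfer, a sulfhydryl oxidase of mitochondria (0.749), the RNA-binding protein Fxr2 (0.731), Pofut1, which adds fucose to Notch receptors (0.701), Pold1, the catalytic subunit of DNA polymerase delta (0.684), and Tex2 (0.661).

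Of the transcription factors and cofactors known to act on Trim63, 18 of 24 were bright enough to be tested, and in wild type muscle 8 rose and 4 fell on day 3, and 9 rose and 4 fell on day 14. The median change over the list was 0.37 and 0.25, against 0.01 and 0.05 over all genes. Of all genes 20% rose and 17.5% fell on day 3, and 22.9% and 18.6% on day 14. Myogenin (Myog), which activates Trim63 in denervated muscle, was undetected in wild type controls and rose at least 6.46-fold on day 3 and at least 4.74-fold on day 14 (adjusted p 9.11e-10 and 5.3e-08). Myod1, of the same family, rose at least 4.21-fold and 5.12-fold. Hdac4, the deacetylase that relieves repression of myogenin, rose 2.82-fold on day 3 and 8.83-fold on day 14, with a larger response on day 14 (difference 1.65, adjusted p 0.00151). These 3 genes were raised in wild type muscle of day 14, where the Trim63 response was not called. A link between these changes and Trim63 was not tested.

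For other regulators the response differed between the days. Nfkb2, of the NF-kappaB family that acts on Trim63, rose 5.78-fold on day 3 and 2.75-fold on day 14 (difference of responses -1.07, adjusted p 0.0153). Mef2c rose by 0.54 on day 3 and fell by 0.66 on day 14 on the log2 scale (difference -1.20, adjusted p 0.000135). Klf15, a glucocorticoid target that acts with the receptor on Trim63, fell by 0.88 on day 3 and was at -0.06 on day 14 (difference 0.82, adjusted p 0.00571). Foxo1, a direct activator of Trim63, was at -0.18 on day 3 and rose by 0.99 on day 14 (difference 1.17, adjusted p 0.01). Foxo3 was near background and passed no denervation test, with 0.51 on day 3 in wild type (adjusted p 0.159). Ppargc1a, the coactivator PGC-1alpha, which restrains FoxO activity, fell by 1.32 on day 3 and by 1.5 on day 14.

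In knockout muscle 9 of these regulators rose and 5 fell on day 3, and 9 rose and 4 fell on day 14. Over all genes these shares were 20.2% and 15.6%, and 19% and 17.7%. These shares are from the fit with all arrays. Fewer of the regulators were called on day 3 once the 2 arrays of most detected probes were dropped. That left only replicate 1 in the denervated knockout group, so the lower counts are not a result about the regulators. Averaged over the 4 combinations, 3 of the 18 were higher in the knockout and none lower: Foxo1 by 0.48 (adjusted p 0.00862), Srf by 0.27 and Smad3 by 0.25. That average called 3.8% of all genes higher and 3.02% lower. Without those 2 arrays none of the 18 was called in that average. In denervated muscle of day 3, Foxo1 was 2.43-fold higher in the knockout (adjusted p 0.00111), a call also lost without the 2 arrays.

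**Figure D3:**
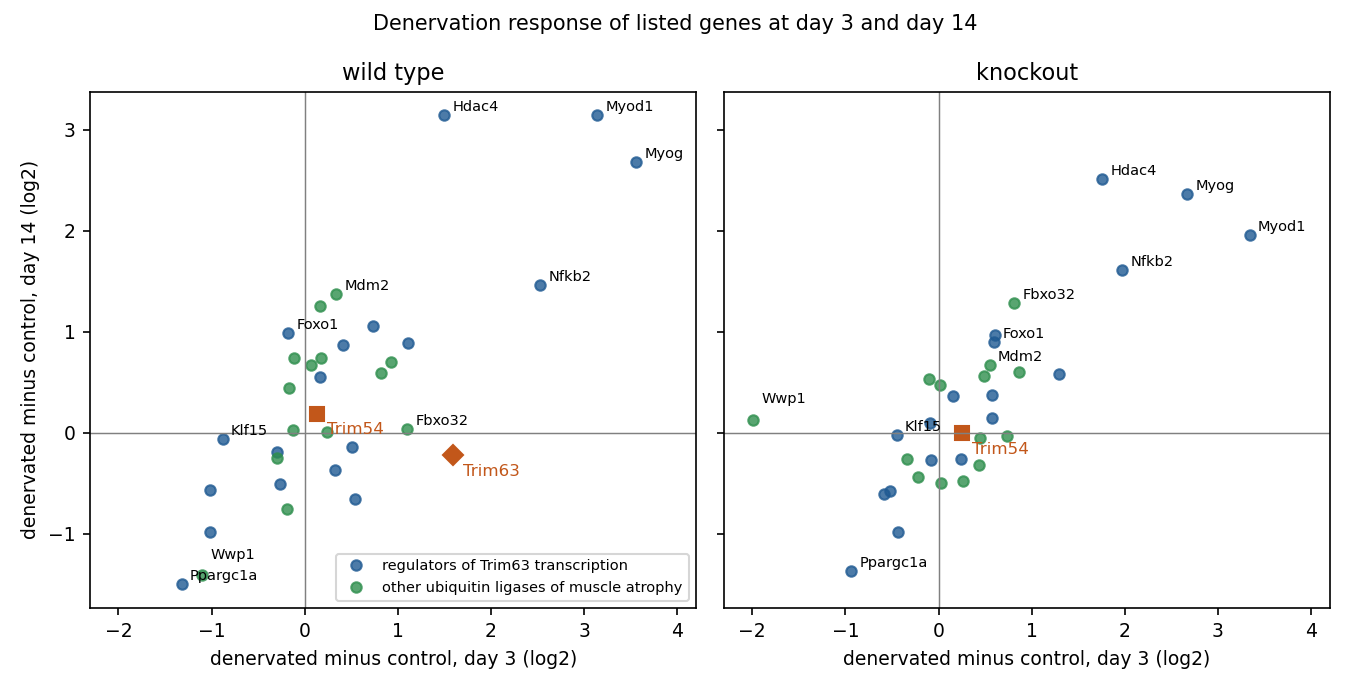
Denervated minus control differences (log2) on day 3 (horizontal axis) and day 14 (vertical axis) in wild type (left) and knockout muscle (right) for the 18 regulators of Trim63 transcription, the 14 other ubiquitin ligases, Trim54 and, in wild type only, Trim63. Trim63 lies at 1.59 and -0.22, while Myog, Myod1 and Hdac4 lie high on both axes and Trim54 close to 0 in both genotypes.

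Among other ubiquitin ligases tied to muscle wasting, 14 of 16 were tested, and 3 rose and 1 fell in wild type muscle on day 3, against 8 and 2 on day 14. As shares of the 14 these stood beside 20% of all genes higher and 17.5% lower on day 3, and 22.9% and 18.6% on day 14. Fbxo32, the F-box protein atrogin-1, rose 2.14-fold on day 3 in wild type muscle (adjusted p 0.00378). It was at 0.04 on day 14 (adjusted p 0.932), and the difference of its responses between days was -1.06 (adjusted p 0.0798). Its level had an SD of 0.72 on the wild type control arrays of day 14, against 0.17 to 0.45 in the other groups. In knockout muscle it rose 1.76-fold on day 3, a call lost when the 2 arrays of most detected probes were dropped (0.70 on the log2 scale, adjusted p 0.274), and 2.42-fold on day 14, and the day 14 response exceeded that of wild type by 1.24 (adjusted p 0.0445). Ubr2, of the N-degron pathway, and Fbxo31 rose in both genotypes on both days, by 0.49 to 0.93 and by 0.59 to 0.86. With those 2 arrays dropped, Fbxo31 kept its knockout call of day 3 at 0.74 (adjusted p 0.0248) and Ubr2 lost it at 0.25 (adjusted p 0.49). Mdm2, the ligase of p53, rose 2.58-fold in wild type and 1.60-fold in knockout muscle on day 14. Wwp1 fell 2.14-fold and 2.66-fold in wild type muscle on day 3 and day 14. In knockout muscle it fell 3.96-fold on day 3 and was at 0.13 on day 14 on the log2 scale (adjusted p 0.695), and the genotype by denervation interaction of day 14 was 1.54 (adjusted p 0.00529).

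The knockout showed 6 ligases up and 2 down of 14 on day 3 and on day 14. Of all genes 20.2% rose and 15.6% fell there on day 3, and 19% and 17.7% on day 14. Fewer ligases were up on day 3 once the 2 arrays of most detected probes were dropped, which left 1 array in that group. Averaged over the 4 combinations, 3 of the 14 were higher in the knockout: Asb2, the substrate receptor of a cullin ligase in muscle, by 0.46 (adjusted p 0.000675), Fbxo30 by 0.39 (adjusted p 0.0171) and Fbxo31 by 0.32 (adjusted p 0.0192). None was lower, where 3.8% of all genes were called higher and 3.02% lower. Asb2 alone of the 14 was called without the 2 arrays, at 0.40 (adjusted p 0.00807). The median over the list was 0.13, against 0 over all genes.

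Trim54 belongs to the much larger Trim family, of which 34 other genes were tested. Averaged over the 4 combinations, Trim44 was higher in the knockout by 0.32 (adjusted p 0.0211), none was lower, and no member was called once the 2 arrays of most detected probes were dropped. With all arrays that average called 3.8% of all genes higher and 3.02% lower. In control muscle of day 14, Trim44 was 0.70 higher and Trim12a lower, at -0.90, in the knockout, where 5.51% of all genes were called. For knockout minus wild type in denervated muscle of day 14, Trim25 and Trim28 were at -0.50 and -0.45, where 6.92% were called. No member was called between genotypes on day 3, in control or denervated muscle, where the same contrasts called 0.521% and 7.17% of all genes. After denervation 6 Trim genes rose and 4 fell in wild type muscle on day 3, and 10 rose and 4 fell on day 14, of 34. Over all genes 20% rose and 17.5% fell on day 3, and 22.9% and 18.6% on day 14. Trim16 rose 2.04-fold and 2.03-fold and Trim25, an interferon-responsive ligase, 1.78-fold and 2.76-fold.

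**Figure D4:**
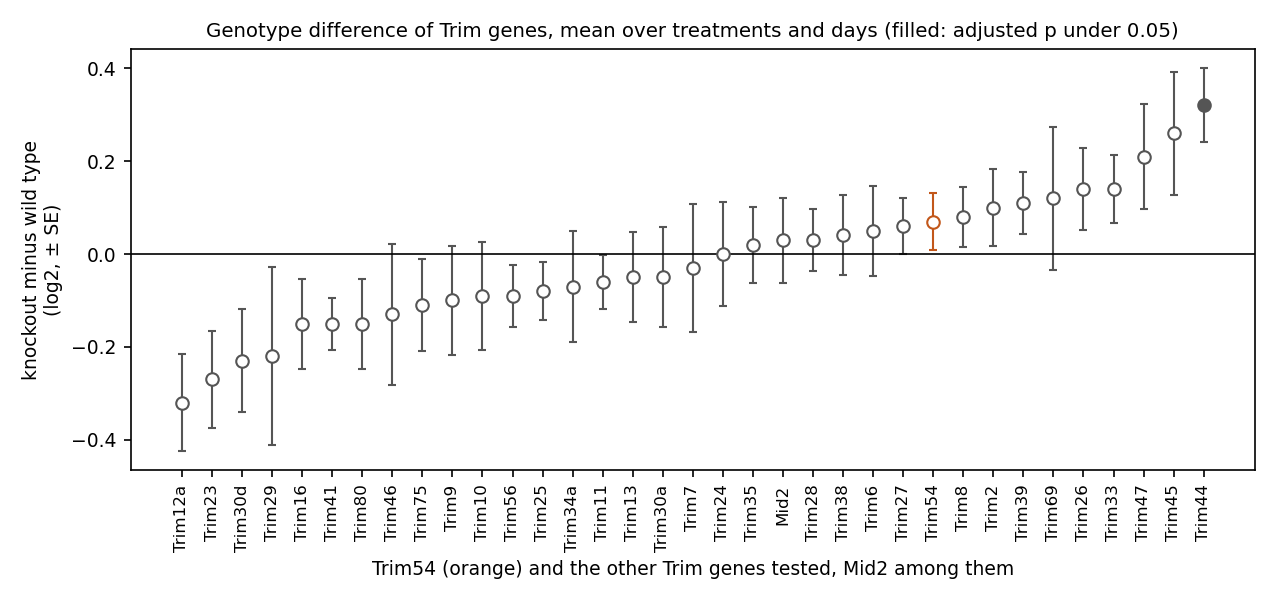
Knockout minus wild type difference (log2 ± SE), averaged over both treatments and both days, of Trim54 (orange) and the 34 other Trim genes tested, in order of the difference. Filled points have an adjusted p under 0.05. Trim44 at 0.32 is called, and Trim54 at 0.07 is not called and lies above the median of the other 34, which is -0.04.

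E1 and E2 enzymes hand ubiquitin to RING ligases such as the MuRFs, and 16 of 19 were tested. In wild type muscle 2 rose and 3 fell on day 3, and 2 rose and 5 fell on day 14, of 16, beside 20% and 17.5% of all genes on day 3 and 22.9% and 18.6% on day 14. Ube2n, which builds ubiquitin chains with Ube2v1, fell 2.32-fold on day 3 and 2.16-fold on day 14, and Ube2d1 2.18-fold and 2.23-fold. Ube2g2, an enzyme of the endoplasmic reticulum, rose 1.71-fold and 1.93-fold. Averaged over the 4 combinations, Ube2k was lower in the knockout, at -0.28 (adjusted p 0.0167), and the other 15 were not called. When the 2 arrays of most detected probes were dropped, Ube2k was at -0.24 and no longer called (adjusted p 0.0776).

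Of the sarcomere and muscle proteins reported as targets or partners of the MuRFs, 22 of 25 were tested. In wild type muscle 2 rose and 10 fell on day 3, and 3 rose and 8 fell on day 14, beside 20% and 17.5% of all genes on day 3 and 22.9% and 18.6% on day 14. In knockout muscle the counts were 2 and 6 on day 3 and 1 and 9 on day 14. With all arrays 20.2% of all genes rose and 15.6% fell there on day 3, and 19% and 17.7% on day 14. Fewer of the 22 were called on day 3 once the 2 arrays of most detected probes were dropped, which left 1 array in that group. The list median on day 3 was -0.52 in wild type and -0.04 in knockout muscle, against 0.01 and 0.04 over all genes. That knockout median includes the 2 arrays of most detected probes. As a genotype by denervation interaction on day 3, 1 of the 22 was called, where 1.08% of all genes were. Myl2 and Myl3, slow myosin light chains of the thick filament, fell 3.55-fold and 2.92-fold in wild type muscle on day 3. Actc1, cardiac alpha-actin, fell 7.13-fold there. The 2 genes that rose were Nbr1 and Sqstm1, autophagy receptors of the titin kinase signalling complex, by 1.03 and 1.49.

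In denervated muscle of day 3, 5 of the 22 were higher in the knockout and 1 lower: Myh1, Myh2 and Myh4, fast myosin heavy chains, by 1.27, 0.34 and 0.54, Mybpc1 by 0.77 and Myoz1 by 0.47, with Sqstm1 at -0.50. Of all genes 3.78% were called higher there and 3.38% lower. Dropping the 2 arrays of most detected probes left 1 knockout array there, and these calls did not hold. Myh1, Myh2 and Myh4 were then at 0.71, 0.31 and 0.17, Mybpc1 at 0.60, Myoz1 at 0.32 and Sqstm1 at -0.56. Averaged over the 4 combinations 1 of the 22 was called, Sqstm1 at -0.24 (adjusted p 0.0242).

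Genes next to Trim63 on chromosome 4 and next to Trim54 on chromosome 5 were taken from the RefSeq gene order of GRCm38.p6, a comparison added after values had been seen. Of the 5 nearest tested genes on each side of Trim63, 4 of 10 were called in the average over the 4 combinations: Slc30a2 at 1.03, Pafah2 at -0.91, Paqr7 at -0.57 and Zfp593 at -0.41. Zfp593 was at -0.33 and -1.97 in control and denervated muscle of day 3 and at 0.12 and 0.55 on day 14, and its average was not called when the 2 arrays of most detected probes were dropped (-0.35, adjusted p 0.0531). The other 3 were still called then. Around Trim54 it was 0 of 10, and over all genes 6.82%.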

How the data were processed

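For 46632 probes on 24 Illumina 1-colour arrays, the deposited file without normalization gives an intensity and a detection p-value per array, per the file headers. BeadStudio 3.2.3 is named in the submitters' processing notes. The authors' processed intensities served only as an alternative. All value columns were matched to samples.

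The neqc function of limma 3.58.1 (R 4.3.3) used the detection p-values to correct background, added 16, quantile-normalized the arrays and took log2. Probes with a detection p-value under 0.05 on at least 3 arrays were kept (21997), and the brightest kept probe stood for its gene. Of all probes 29976 had 1 gene symbol, 10 several and 16646 none, and 29921 were matched to current genes by Entrez identifier. One limma model gave each of the 8 groups its mean, leaving 16 residual degrees of freedom, and 17 contrasts were tested two-sided, 2 of them added after values had been seen. Precision is limited by the number of arrays. The fit was tested on simulated data.

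The members and gene lists were chosen with earlier results of these data known. Named are the members, the 5 genes most like each, and from each list up to 4 called genes with the largest change, or any as an example of a known role. Replicate numbers were taken not to pair arrays: of 36 correlations between same-numbered arrays of a day (deviations from group means), 1 exceeded 0.1. Alternatives covered background correction, normalization, filtering, the authors' values, array weights, a covariate, a replicate block and left-out arrays.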

Additional observations from a re-analysis of the deposited data

Results flagged for a closer look

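The response of Trim63 to denervation differed between the days in wild type muscle, with a day by denervation interaction of -1.8 on the log2 scale (SE 0.237, limma adjusted p 5.28e-05). The genotype by denervation interaction of the Trim63 probe on day 3 was -1.34 (SE 0.237, limma adjusted p 0.00865). None of the 6 knockout arrays of that day detected the probe, so it sets the wild type rise against background signal. It was not called with only the arrays of day 3 (limma adjusted p 0.107) or with the authors' processed values and pseudocount 16 (limma adjusted p 0.105).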

How the results depend on the processing

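The day 3 rise of Trim63 in wild type muscle, its day by denervation difference and its lower level in every genotype comparison kept direction and call under the 13 other settings where they applied and with each of 24 arrays left out. Of 1244 values of both genes over all settings, 1205 kept direction and side of the threshold and 19 turned in direction. The cause of these changes was not tested.

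With median centring, Trim54 was at 0.61 after denervation in knockout muscle of day 3, at -0.11 and -0.67 for day by denervation in wild type and knockout, and at 0.18 and 0.87 for day in wild type and knockout controls; relative to the median of all genes they were 0.16, -0.03, -0.16, -0.15 and 0.43. Trim63 was at 0.02 after denervation in knockout muscle of day 14. With the authors' processed values (pseudocount 16), Trim63 was at 0.59 after denervation in knockout of day 3, at -1.0 for genotype by denervation on day 3, and at 0.42 and 1.01 for genotype by day in controls and on average. Without background correction, Trim54 was at 0.36 for genotype in controls of day 14 and at -0.31 for day in wild type controls, and Trim63 at 0.28 for day in knockout controls and at -2.97 for the average genotype difference. With only day 3 arrays, Trim63 was at -1.34 for genotype by denervation (adjusted p 0.107).

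With array weights, Trim63 was at 0.06 after denervation in knockout muscle of day 14 and at 0.63 for genotype by day on average, and Trim54 at 0.39 for genotype in controls of day 14, at -0.32 and 0.26 for day in wild type and knockout controls, and at 0.58 and 0.43 for genotype by day in controls and on average. With detected probes as covariate, Trim54 was at 0.03 after denervation in knockout muscle of day 14, and Trim63 at 0.73 and 0.58 for day in wild type and knockout controls. Dropping the 2 arrays of most detected probes (chosen after seeing the data; the 1 array left is assumed to vary like the rest) put Trim54 at 0.06 for genotype in denervated muscle and Trim63 at -1.3 for genotype by denervation on day 3.

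With each array left out, Trim54 ran from -0.14 to 0.03 for genotype in denervated muscle of day 3, from -0.04 to 0.16 for day by denervation in wild type and from -0.02 to 0.01 after denervation in knockout muscle of day 14. Trim63 ran from -0.11 to 0.08 for the last, from -0.25 to 0.06 for genotype by day in controls and from 0.54 to 0.73 for it on average, called only without wild type control replicate 1 of day 3 (adjusted p 0.0421). A replicate block changed no call of either gene (Trim54 average 0.07, adjusted p 0.506) and took genes called from 122 to 60 for genotype by denervation on day 3 and from 1565 to 870 for day in wild type controls; own numbers correlated best in 19 of 72 cases. A chip block was not run: no chips are named.

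Genes called, as reported (range over settings), were 59 (26 to 1021), 811 (28 to 3017), 624 (150 to 1427) and 783 (300 to 2243) for genotype in control and denervated muscle of day 3 and then day 14, and 772 (319 to 2447) on average. They were 122 (3 to 2225) and 1415 (708 to 2611) for genotype by denervation on days 3 and 14, and 4242 (3537 to 6946), 4055 (1671 to 6709), 4694 (4092 to 8089) and 4150 (3441 to 6932) after denervation in wild type and knockout of day 3 and then day 14. For day by denervation they were 1546 (1173 to 2552) and 2332 (219 to 4742), for day in controls 1565 (212 to 3816) and 3917 (238 to 6841), and for genotype by day 5 (0 to 777) and 64 (13 to 778).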
